A study of Mus musculus with 28 samples.

Results

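Long noncoding RNA (lncRNA) genes that are widely described as retained in the nucleus were followed through all 28 libraries of a mouse hypothalamus study. They are Malat1, Neat1, Meg3, Miat, Rian, Mirg, Kcnq1ot1 and Snhg11, chosen by name, 8 of the 55487 genes in the count table, and each was present as 1 row. The mice carried LepRb-eGFP-L10a, a ribosomal protein L10a fused to eGFP that is made in cells expressing LepRb, the long leptin receptor isoform. Antibodies to eGFP pulled the tagged ribosomes and their RNA out of a hypothalamic lysate onto beads, and the liquid left behind was kept as the depleted fraction. The 8 RNAs are followed here as a gauge of RNA that is not bound to ribosomes. That use was not tested, because the depleted fraction also keeps the ribosomes of untagged cells with their RNA.

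Mice of 10 to 13 weeks and of both sexes were fasted from the start of the light phase and injected intraperitoneally with metreleptin at 5 mg per kg or with vehicle, named PBS in the sample labels and saline in the protocol. The mice called wild type here carried the reporter alone (LepRbeGFP-L10a), and ob/ob mice carried it with the leptin mutation (LepRbeGFP-L10a;Lepob/ob) and make no functional leptin. At 3 h there were 4 vehicle lysates (m1, m3, f1 and f3) and 3 leptin lysates (m24, f2 and f4), all wild type. At 10 h wild type had 1 lysate with vehicle and 3 with leptin, and ob/ob mice had 2 with vehicle and 1 with leptin. Each of the 14 lysates gave 1 bead and 1 depleted library. The sources do not say whether a lysate held 1 hypothalamus or several, so p-values measure the spread between these lysates, which may be technical in part. Each of the 3 combinations of genotype and time was sequenced in a run of its own, so time, genotype and run cannot be told apart, and a term for run could not be fitted beside them. Every 10 h lysate held both Xist, the RNA of the inactive X chromosome, and Y-linked Ddx3y. The 3 h lysates held mainly Xist (f) or mainly Ddx3y (m). RNA of female and male mice thus appears mixed in the 10 h lysates alone, and this mixing cannot be told apart from time either. Every contrast of leptin with vehicle lies inside a single run or averages such contrasts.

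Malat1 is a nuclear speckle RNA, and Neat1 is the scaffold around which paraspeckle proteins assemble. Meg3, Rian and Mirg are transcribed from the maternal copy of the imprinted Dlk1-Dio3 domain, where Rian and Mirg carry clusters of small nucleolar RNAs and microRNAs. Kcnq1ot1 is a very long, unspliced antisense RNA that silences neighbouring genes on the paternal chromosome. Miat, also called Gomafu, forms nuclear spots in neurons, and Snhg11 is a spliced host of small nucleolar RNAs that is abundant in neurons. A nuclear fraction was not analysed here, so nuclear retention is background and not a measurement.

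In the GENCODE M21 annotation of GRCm38, Malat1 lay at chr19:5795690-5802672 and Neat1 at chr19:5824708-5845478, both on the minus strand. Meg3 lay at chr12:109541001-109571726, Rian at chr12:109603940-109661716 and Mirg at chr12:109729764-109749460, all on the plus strand. Miat lay at chr5:112213228-112229395 on the minus strand, Snhg11 at chr2:158375638-158386145 on the plus strand and Kcnq1ot1 at chr7:143203458-143296549 on the minus strand, within Kcnq1 on the opposite strand. The annotation types 5 of the 8 as lincRNA (Malat1, Neat1, Meg3, Miat and Mirg), Rian as processed transcript, Kcnq1ot1 as antisense and Snhg11 as protein-coding. The longest transcripts of Malat1 and Neat1 are single exons of 6983 and 20771 bases, that of Kcnq1ot1 is a single exon of 93092 bases, and those of Meg3 and Mirg are spliced from 5 and 12 exons. Of the exonic bases of Miat, 30.4% are shared with another gene of the count table, against 1.2% to 7.72% for the other 7. Because the library kit does not mark the strand, and no source states stranded counting, reads in those bases, and reads of Kcnq1 and Kcnq1ot1, cannot be told apart.

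The libraries were made from poly(A)-selected RNA, and these transcripts differ in where they hold runs of A. The mature 3′ end of Malat1, and of the long Neat1 isoform, is made by RNase P cutting instead of by cleavage and polyadenylation, and a genome-encoded A-rich tract before the cut folds with upstream U-rich stretches. The windows below show that tract for the pair, and long runs of A in Kcnq1ot1 and Rian. They were read from the annotated transcripts, 5′ to 3′, with the run in capitals and positions on GRCm38. The Malat1 window is chr19:5795982-5796079 (minus strand), the Neat1 window chr19:5824708-5824798 (minus), the Kcnq1ot1 window chr7:143226915-143227015 (minus) and the Rian window chr12:109652199-109652273 (plus).
Malat1: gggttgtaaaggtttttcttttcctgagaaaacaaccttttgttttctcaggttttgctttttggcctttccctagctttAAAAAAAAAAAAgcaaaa
Neat1: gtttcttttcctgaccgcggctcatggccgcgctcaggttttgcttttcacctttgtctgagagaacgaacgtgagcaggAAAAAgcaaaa
Kcnq1ot1: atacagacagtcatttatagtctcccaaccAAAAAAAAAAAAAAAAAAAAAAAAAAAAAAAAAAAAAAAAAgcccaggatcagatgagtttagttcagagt
Rian: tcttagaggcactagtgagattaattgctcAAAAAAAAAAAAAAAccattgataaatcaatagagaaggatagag
The Malat1 run was 12 bases and the Neat1 run 5, each followed at once by GCAAAA, and they ended 298 and 6 bases before the annotated transcript end. The pair of windows shared the stretches TTTCTTTTCCTGA, of 13 bases, and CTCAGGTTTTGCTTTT, of 16 bases, in the same order, where T stands for U in the RNA. The run in Kcnq1ot1 was 41 bases and that in Rian 15. Elsewhere Neat1 had a run of 7, and the longest runs in Snhg11, Mirg and Miat were 8, 5 and 4 bases. The runs of Meg3 are not reported here. Which A tract, if any, brought each RNA through poly(A) selection was not tested.

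Bead libraries summed to 21277982 to 42267040 counts and depleted ones to 19649105 to 41804049, and the lowest count of any of the 8 genes in any library was 24, for Mirg. Levels are CPM, counts scaled to the library total with edgeR's TMM factors, given as mean ± SD, and differences are log2 fold changes from edgeR's quasi-likelihood test, called at an adjusted p under 0.05. Transcripts of the tagged cells were enriched on the beads. All 10 markers of LepRb neurons were higher in beads than in the depleted fraction, with Lepr higher by 2.28 on the log2 scale and Agrp by 5.29. All 36 markers of astrocytes, oligodendrocytes and microglia were lower in beads, with a mean of 23.0% to 60.3% of the depleted level in a lysate, and the mean of 12 general neuronal genes was 105% to 119%. Markers of other non-neuronal cells did not all fall. Of 12 endothelial and mural markers, 5 were called higher and 3 lower, with a median log2 fold change of 0.40. In wild type these calls were 8 higher and 2 lower at 3 h, and 0 higher and 5 lower at 10 h. Of 12 ependymal and tanycyte markers, 2 were called higher and 8 lower (median -0.61). Pituitary transcripts were present in some hypothalamic lysates, up to 3039 CPM over 6 genes in a depleted library of the wild-type 3 h leptin group.

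In the depleted fraction the 8 RNAs spanned a wide range of levels. Among genes of the count table, Meg3 had the highest count in 11 of 14 depleted libraries and ranked no lower than 3 otherwise. Some mitochondrial-encoded mRNAs had no counts in any library, so this ranking cannot place them. Meg3 reached 4246 ± 569 CPM (SD, n = 14), followed by Snhg11 at 1374 ± 237 and Rian at 633 ± 44.4 CPM. Miat stood at 262 ± 33.8, Malat1 at 136 ± 29.6 and Neat1 at 97.7 ± 16.96 CPM, while Kcnq1ot1 and Mirg stood at 10.1 ± 1.83 and 8.84 ± 1.55 CPM. Malat1, often counted among the most abundant RNAs of a whole cell, ranked between 1053 and 2548 in the depleted libraries. The protocol in the labels does not say whether nuclei were removed from the lysate before the pull-down.

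Per kilobase of annotated exon, Meg3 led in the depleted fraction at 235 ± 31.4 CPM per kb and Snhg11 followed at 161 ± 27.8. Rian and Miat stood at 34.7 ± 2.43 and 28.2 ± 3.64 CPM per kb, Malat1 at 19.4 ± 4.24, Neat1 at 4.70 ± 0.817 and Mirg at 1.21 ± 0.212. Kcnq1ot1 was lowest at 0.108 ± 0.0196 CPM per kb over its very long exon. In this order the ranges of neighbouring RNAs overlapped for Meg3 and Snhg11, Rian and Miat, and Miat and Malat1, and the other 4 neighbouring pairs did not overlap. Among the 2420 lncRNAs tested, Meg3 ranked 1, Snhg11 2 and Rian 4 by mean CPM over all libraries, Miat 11, Malat1 16 and Neat1 26, and Kcnq1ot1 and Mirg 183 and 204.

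All 8 RNAs were lower in beads than in the depleted fraction, 7 of them in 14 of 14 lysates and Mirg in 12. Together they took 0.557% to 0.858% of a depleted library and 0.0501% to 0.322% of a bead library. Their median fold change was -1.93 on the log2 scale, against -0.01 for all 19682 genes tested, -0.35 for the 2412 other annotated lncRNAs and 0.03 for 15579 protein-coding genes. In that comparison 39.3% of all genes were called lower, and 1182 of the 2412 other lncRNAs (49.0%) were. A lower level in beads was thus common among lncRNAs, and all 8 estimates lay below the lncRNA median. In bulk RNA of this kind, fewer cells of a type and less RNA per cell cannot be told apart. The depleted fraction also holds ribosome-bound RNA of untagged cells. Less binding to ribosomes and a lower level in the tagged cells thus cannot be told apart here either. The median in the same comparison was -1.51 for glial markers and 0.31 for general neuronal genes.

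**Figure D1:**
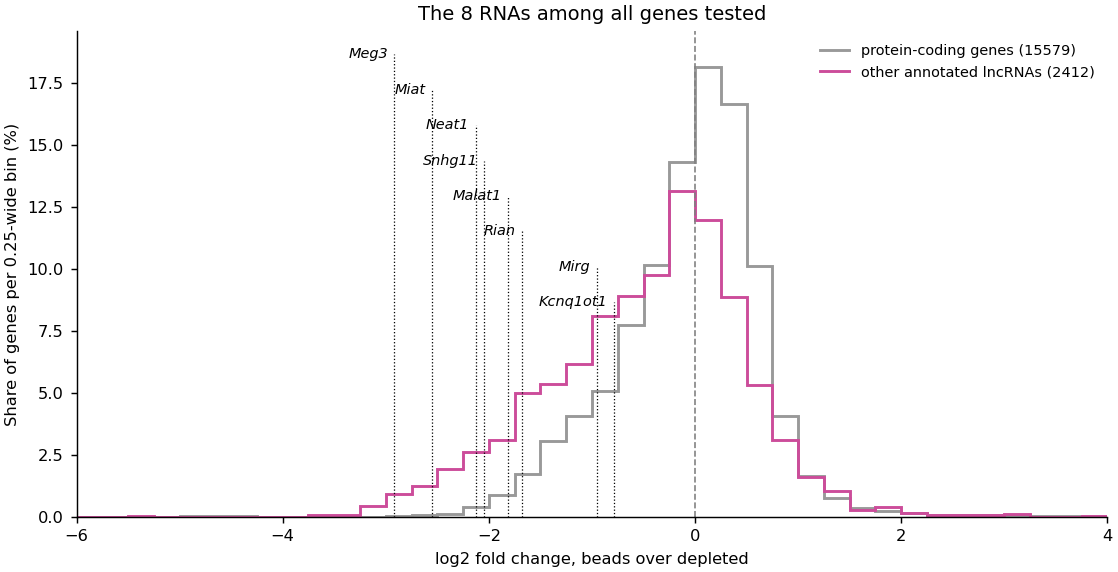
Share of genes (%, y axis) in bins of the log2 fold change of beads over the depleted fraction (x axis), for 15579 protein-coding genes (grey) and 2412 other annotated lncRNAs (pink), with dotted lines at the 8 RNAs. Meg3 at -2.92 and Miat at -2.55 lie in the far left of both distributions, and Kcnq1ot1 at -0.79 lies within the left shoulder.

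Meg3 showed the widest gap. In depleted libraries it stood at 4531.5, 5096, 4206 and 4290 CPM in the wild-type 3 h vehicle lysates m1, m3, f1 and f3, and at 3951, 3697 and 5171 CPM in the 3 h leptin lysates m24, f2 and f4. In beads of the same lysates it stood at 882, 495, 1697 and 860 CPM with vehicle and at 575, 975 and 809 CPM with leptin. At 10 h the wild-type depleted libraries held 4552.5 CPM with vehicle and 4238, 4658 and 4493 CPM with leptin, and the ob/ob ones 3160 and 3847 CPM with vehicle and 3544 CPM with leptin. Beads at 10 h held 572 CPM with vehicle and 197, 206 and 231 CPM with leptin in wild type. In ob/ob beads the levels were 398 and 1448 CPM with vehicle and 264 CPM with leptin. The lowest depleted value was above the highest bead value, so the fractions did not overlap. The fold change was -2.92 (SE 0.297, edgeR adjusted p = 5.738e-07), which is 13.2% of the depleted level, and Meg3 ranked 23 from the lowest among the 2420 lncRNAs. Its bead level was highest in 3 h vehicle f1 and ob/ob vehicle 2 and lowest in the 3 wild-type 10 h leptin lysates.

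Its neighbours in the Dlk1-Dio3 domain did not share that size. Rian fell to 31.2% of the depleted level (log2 fold change -1.68, SE 0.119, edgeR adjusted p = 3.174e-09), with beads at 132 to 338 CPM and a median of 186, against 564 to 711 CPM and a median of 635 in the depleted fraction. Rian's fractions did not overlap either. Mirg fell to 51.6% (-0.95, SE 0.248, edgeR adjusted p = 0.002573), with beads at 1.10 to 17 CPM and a median of 4.98, against 6.36 to 12.4 CPM and a median of 8.24. Its fractions overlapped, since 3 h vehicle f1 had 17 CPM in beads, 185.5% of its depleted level, and 3 h leptin f2 stood at 101%. Of the protein-coding genes of the domain, Dlk1, a Notch-like signalling protein, was higher in beads (1.44, SE 0.0489). Rtl1, whose reads share the locus of an antisense transcript, was lower (-1.03, SE 0.0713), and Dio3, which inactivates thyroid hormone, was not called (-0.31, edgeR adjusted p = 0.1587).

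Malat1 was lower in beads in 14 of 14 lysates. Its depleted level was 109, 146, 104 and 172 CPM in the 3 h vehicle lysates m1, m3, f1 and f3, and 113, 102 and 158 CPM in the 3 h leptin lysates m24, f2 and f4. The bead libraries of these lysates held 39.8, 40.1, 95.1 and 90.2 CPM with vehicle and 51.8, 52.35 and 63.3 CPM with leptin. At 10 h the depleted level was 124 CPM with vehicle and 127, 135 and 97.0 CPM with leptin in wild type, and 184 and 178 CPM with vehicle and 151 CPM with leptin in ob/ob mice. Beads at 10 h held 24.4 CPM with vehicle and 9.74, 14.5 and 9.19 CPM with leptin in wild type, and 32.9 and 117.5 CPM with vehicle and 24.4 CPM with leptin in ob/ob mice. Only the ob/ob vehicle 2 bead library, at 117.5 CPM, rose above the lowest depleted libraries. The fold change was -1.81 (SE 0.302, edgeR adjusted p = 7.974e-05), or 28.5% of the depleted level.

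Neat1 was also lower in all 14 lysates, at 7.30% to 66.8% of the depleted level. Its bead libraries ranged from 6.10 to 70.3 CPM with a median of 24.2, and its depleted libraries from 76.1 to 135 CPM with a median of 92.8, so the fractions did not overlap. The fold change was -2.13 (SE 0.281, edgeR adjusted p = 7.885e-06). Of 8 mRNAs of proteins that join Neat1 in paraspeckles, 6 were higher in beads and none lower, among them Hnrnpk (0.65) and Sfpq (0.42), while Tardbp was not called at 0.06. Of all protein-coding genes tested, 42.9% were called higher.

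Miat had the second widest gap, and Snhg11 one near that of Neat1. Miat fell to 17.1% of the depleted level (log2 fold change -2.55, SE 0.238, edgeR adjusted p = 1.9e-07), with beads at 19.1 to 118 CPM and a median of 41.0, against 208 to 320 CPM and a median of 258. Snhg11 fell to 24.2% (-2.05, SE 0.243, edgeR adjusted p = 2.58e-06), with beads at 150 to 1016 CPM and a median of 312, against 965 to 1772 CPM and a median of 1361. Miat's fractions did not overlap, and for Snhg11 only the bead library of 3 h vehicle f1 passed the lowest depleted one. Kcnq1ot1 had the smallest gap at 57.9% of the depleted level (-0.79, SE 0.0902, edgeR adjusted p = 1.044e-07), with beads at 3.83 to 7.44 CPM and depleted libraries at 7.35 to 13.9 CPM. Its bead and depleted ranges met only through the bead library of 3 h vehicle f1 and the depleted library of ob/ob vehicle 1. Kcnq1, which surrounds it, was near 0 in both fractions (0.18 and 0.24 CPM).

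**Figure D2:**
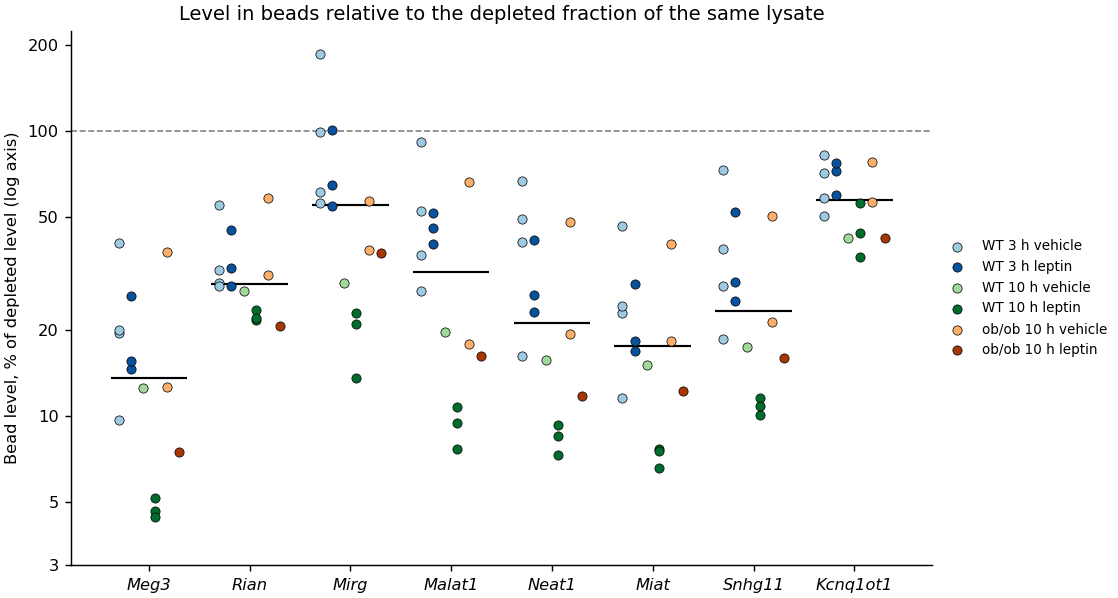
Bead level as a percent of the depleted level of the same lysate (log axis) for each RNA, 1 point per lysate coloured by group, with the median over 14 lysates as a black line and equal levels as a dashed line. The 3 wild-type 10 h leptin lysates are the lowest for 6 of the 8 RNAs (not Rian and Kcnq1ot1), and 3 h vehicle f1 is the highest for all but Rian.

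The spread between lysates lay mostly in the beads. From the lowest to the highest library, Meg3 varied 8.63-fold in beads and 1.64-fold in the depleted fraction, Malat1 12.8-fold and 1.895-fold, and Mirg 15.5-fold and 1.94-fold. Kcnq1ot1 was the exception, with 1.94-fold in beads and 1.885-fold in the depleted fraction. In 3 h vehicle f1 the bead level was 40.4% of the depleted level for Meg3, 91.2% for Malat1 and 72.7% for Snhg11. In ob/ob vehicle 2 it was 37.6% for Meg3, 65.9% for Malat1 and 50.2% for Snhg11. In the 3 wild-type 10 h leptin lysates it was 4.43% to 5.14% for Meg3, 7.68% to 10.75% for Malat1 and 10.1% to 11.6% for Snhg11.

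**Figure D3:**
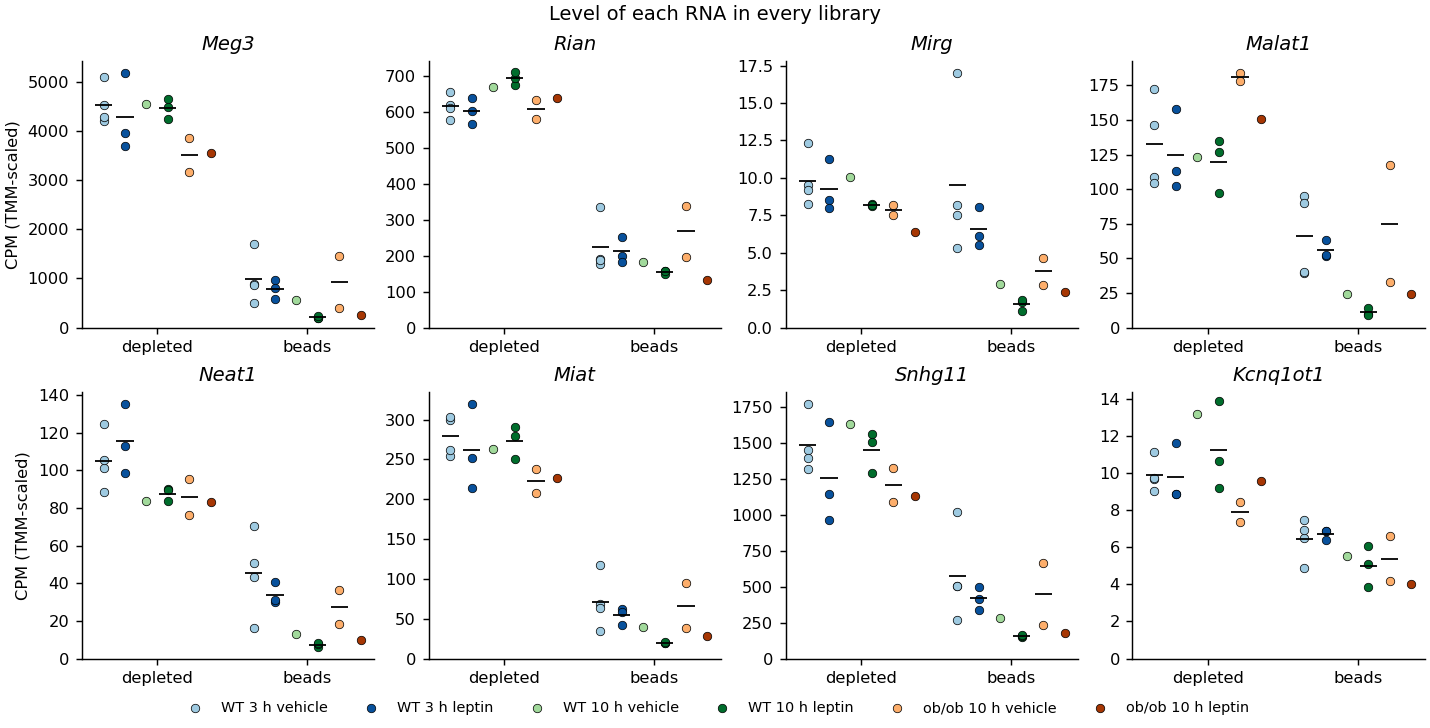
TMM-scaled CPM (y axis, from 0) of each RNA in every depleted and bead library, 1 point per library coloured by group, with the group mean as a line where a group has more than 1 library. Meg3, for example, runs from 3160 to 5171 CPM in the depleted libraries and from 197 to 1697 CPM in beads, and only Malat1, Mirg, Kcnq1ot1 and Snhg11 have bead points that reach the depleted range.

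Over the 14 bead libraries, the 5 genes whose log2 CPM was most like that of Meg3, out of 14637 genes, were Miat (Pearson r = 0.988), Snhg11 (0.987), Mir124a-1hg (0.981), Trank1 (0.971) and Gm49759 (0.971). Of the other 5 RNAs, Neat1 had r = 0.945, Malat1 0.919, Mirg 0.900, Rian 0.860 and Kcnq1ot1 0.667 with Meg3. The 5 genes most like Malat1 were Hif3a (0.945), Amot (0.943), Trank1 (0.937), Pld1 (0.936) and Zbtb16 (0.931), and Miat was ninth at 0.922. These r values describe 14 libraries that share runs and bead preparations.

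Across the lysates of all runs, the bead to depleted ratio of Malat1 moved with that of glial transcripts. Over the 14 lysates its log2 value had r = 0.50 (permutation p = 0.06197) and rho = 0.626 (permutation p = 0.01843) with the ratio of summed mitochondrial-encoded mRNAs. With the mean ratio of 36 glial markers it had r = 0.851 (permutation p = 0.00013) and rho = 0.855 (permutation p = 0.00015). These were the 2 relations computed, two-sided, and the adjusted p-values for r were 0.06197 and 0.00026. The permutations shuffled lysates across runs, so these p-values do not set differences between runs aside. Without the 2 lysates farthest from the median on the x axis, r was 0.557 for mitochondrial-encoded mRNAs and 0.812 for glial markers (permutation p = 0.06209 and 0.00153). Within the 7 wild-type 3 h lysates, the only run with at least 6, r was 0.588 and 0.657 (exact permutation p = 0.1607 and 0.1024). There rho was 0.571 and 0.5 (exact permutation p = 0.2 and 0.2667), so the glial relation did not pass the test within a run. Mitochondrial-encoded mRNAs, which mitochondrial ribosomes translate, stood at 1.33% to 43.5% of the depleted level, with the highest value in ob/ob vehicle 2 and the next, 10.5%, in wild-type 10 h vehicle. Of the 13 such genes, 7 had counts enough to test and 5 of the others were listed at 0 in all libraries.

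**Figure D4:**
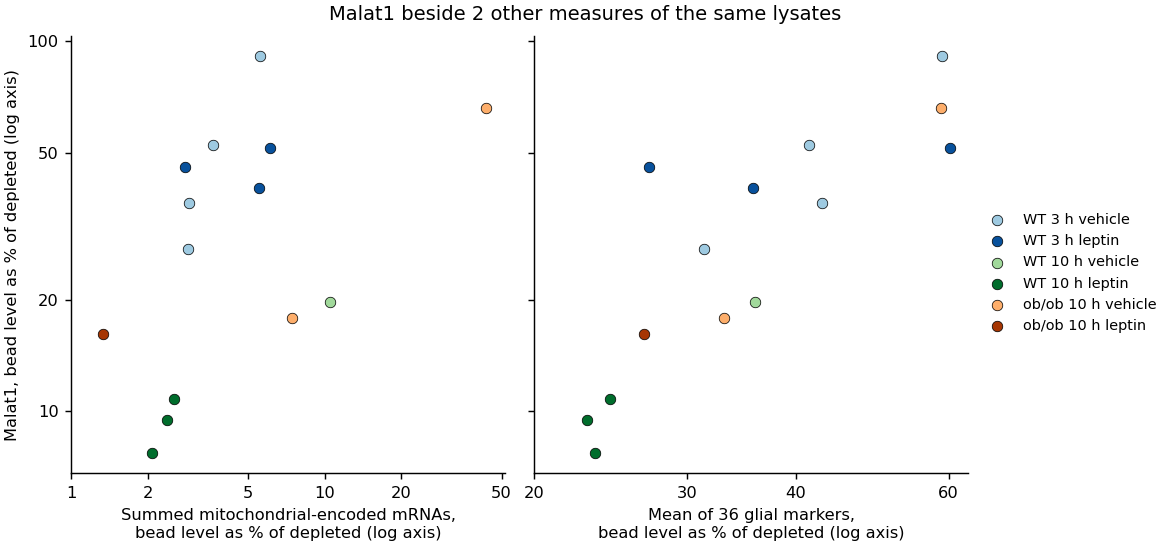
Malat1 bead level as a percent of its depleted level (y axis, log) against the same percent for summed mitochondrial-encoded mRNAs (left) and for 36 glial markers (right, log axes), 1 point per lysate coloured by group. The right panel rises from the wild-type 10 h leptin lysates at 23.0% to 24.5% on the x axis to 3 h vehicle f1, ob/ob vehicle 2 and 3 h leptin f2 at 58.9% to 60.3%, and the left panel has 1 lysate, ob/ob vehicle 2, far to the right.

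Other RNAs of the same classes did not all fall with the 8. Of 13 further lncRNAs described as nuclear that could be tested, 8 were lower in beads and 4 higher, with a median of -0.27. The imprinted Snhg14, host of the Prader-Willi small nucleolar RNAs, and Sox2ot were lower (-2.16 and -1.12). Peg13 and Tug1, by contrast, were higher (0.39 and 0.40), with means of 846 and 191 CPM in beads. Of 13 lncRNAs described as mainly cytoplasmic or as hosts of small nucleolar RNAs, 7 were higher, among them Gas5 (0.89) and Zfas1 (1.07), and 6 lower, among them Oip5os1 (-1.997) and 2900097C17Rik (-1.28). Gas5 is known to be engaged by ribosomes and then decayed. Of 12 mRNAs known for introns that hold them in the nucleus, 7 were lower and 3 higher (median -0.34), with Ogt at -0.94, Ddx17 at -0.44, Son at -0.30 and Rbm39 at 0.14. In the same comparison 7730 of all 19682 genes tested were called lower and 7603 higher. Whether these lists differ from all genes was not tested.

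Xist, the RNA that coats the inactive X chromosome, was higher in beads (1.85, SE 0.485, edgeR adjusted p = 0.003141). In the 4 lysates with f in their titles it had 82.6 to 248 CPM in beads and 8.74 to 14.1 CPM in the depleted fraction, so its fractions did not overlap there. Malat1 and Meg3 were lower in beads than in the depleted fraction in those same 4 lysates. In the 3 lysates with m in their titles Xist had 0 to 7 counts, and the Y-linked Ddx3y had 2934 to 4257 counts per library against 1 to 5 in the f lysates. The 10 h lysates held both RNAs, with Xist at 10.3 to 24.5 CPM in beads and 4.98 to 21.5 CPM in the depleted fraction, where Ddx3y had 714 to 1231 counts. The bead level of Xist was 624% to 1760% of the depleted level in the f lysates and 47.8% to 406% in the 10 h lysates, where wild-type vehicle was below 100% and leptin 2 at 102%. Its pooled difference thus lay mainly in the f lysates, and the cause was not tested.

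The gap between fractions was present at both times and in both genotypes. In wild type at 3 h, 7 of 8 RNAs were lower in beads, with 32.4% of all genes called lower. Mirg was not called there (log2 fold change -0.29, SE 0.174, edgeR adjusted p = 0.1484), and was called without 3 h vehicle f1 (-0.50, adjusted p = 0.002125). In wild type at 10 h all 8 were lower, with 35.0% of genes called lower, and in ob/ob mice at 10 h all 8 were lower, with 23.2%. Meg3 stood at 19.2% of the depleted level at 3 h, 6.08% in wild type at 10 h and 15.2% in ob/ob mice. For Malat1 these values were 46.5%, 11.4% and 27.2%.

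**Figure D5:**
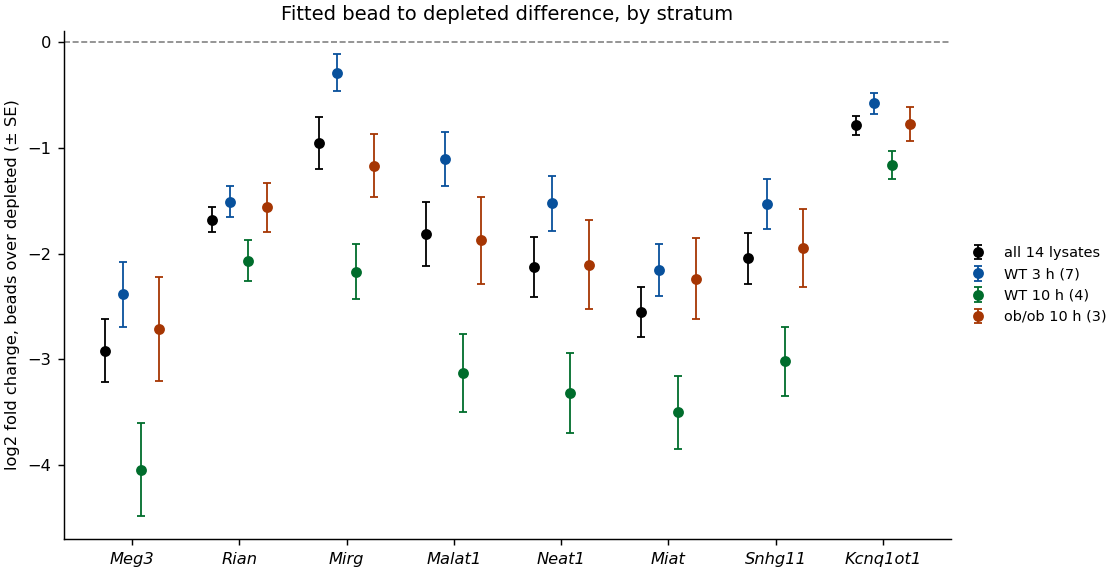
Fitted log2 fold change of beads over the depleted fraction with its standard error (y axis) for each RNA, over all 14 lysates and separately for wild type at 3 h, wild type at 10 h and ob/ob mice at 10 h. For each RNA the wild-type 10 h estimate is the lowest, and for Mirg at 3 h the estimate of -0.29 lies near 0.

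All 8 fitted gaps were larger in wild type at 10 h than at 3 h, and 1 difference, that of Mirg, passed the threshold after adjustment over all genes. The bead level as a percent of the depleted level did not overlap between the times for Malat1, Neat1, Rian, Mirg and Snhg11, and overlapped for Meg3, Miat and Kcnq1ot1. The share of all genes without overlap was not counted, so this is a description of the 8 RNAs alone. The difference was -1.88 for Mirg (SE 0.313, edgeR adjusted p = 0.03289), -2.02 for Malat1 (SE 0.433, edgeR adjusted p = 0.05846) and -1.79 for Neat1 (SE 0.445, edgeR adjusted p = 0.06687). It was -1.66 for Meg3, -1.34 for Miat, -1.48 for Snhg11, -0.58 for Kcnq1ot1 and -0.56 for Rian, with adjusted p from 0.07174 to 0.1814. In this comparison 0.432% of all genes were called. All 8 RNAs had an unadjusted p under 0.05, as did 4664 of the 19682 genes tested. DESeq2 called 7 of the 8, and 1293 genes in all. The call for Mirg ended in 7 of the 14 fits that left out 1 lysate, namely without 3 h leptin f2, 3 h vehicle f3, ob/ob vehicle 1 or any of the 4 wild-type 10 h lysates. Its value ran from -2.06 to -1.67 over the 14 fits. Without 3 h vehicle m3, 7 RNAs were called. Glial markers had negative values in this contrast too, with medians of -1.10 for astrocytes (11 of 12 negative), -0.57 for oligodendrocytes (12 of 12) and -0.50 for microglia (11 of 12), none of them called. Endothelial and mural markers had a median of -1.28 (12 of 12 negative, 2 called lower) and ependymal and tanycyte markers one of -0.37 (12 of 12, none called). The median of mitochondrial-encoded mRNAs was -0.26 (6 of 7). The part of these transcripts in the result was not tested. The fitted gap was smaller in ob/ob mice than in wild type at 10 h for all 8, by 0.39 for Kcnq1ot1 to 1.33 for Meg3, and edgeR called none (adjusted p 0.3702 to 0.4852, 0.142% of genes called, 5 RNAs at an unadjusted p under 0.05, none by DESeq2). Of the 19682 genes tested, 2387 had an unadjusted p under 0.05 in it. Beside the median of 1.14 for the 8 RNAs, mitochondrial-encoded mRNAs had a median of 1.23 (7 of 7 positive), and endothelial and mural markers one of 0.69 (12 of 12). Astrocyte markers had a median of 0.60 (11 of 12), oligodendrocyte markers 0.53 (12 of 12) and microglia markers 0.48 (11 of 12), none of them called, and their part was not tested. These strata also differ in their share of leptin lysates, 3 of 7, 3 of 4 and 1 of 3.

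Taken by fraction, the fitted differences between times were larger in beads. In wild-type beads at 10 h against 3 h, the log2 difference was -1.88 for Malat1 (SE 0.453, edgeR adjusted p = 0.1571), -1.99 for Neat1 (SE 0.407, adjusted p = 0.1502), -1.86 for Mirg (SE 0.347, adjusted p = 0.1422) and -1.33 for Meg3 (SE 0.453, adjusted p = 0.2081). No RNA was called by edgeR, which called 0% of genes. Of the 8, 6 had an unadjusted p under 0.05, as did 3224 of the 18212 genes tested. DESeq2 called 3 of the 8 (Malat1, Neat1 and Mirg), and 463 genes in all. Without 3 h vehicle m3, edgeR called Neat1 (-2.12, adjusted p = 0.005751) and Mirg (-1.96, adjusted p = 0.0188). In the depleted fraction 7.18% of genes were called, and of the 8 RNAs Rian alone was, higher at 10 h by 0.16 (SE 0.0433, edgeR adjusted p = 0.03604). Of the 8, 3 had an unadjusted p under 0.05 there, as did 4469 of the 19115 genes tested. Rian stood at 576 to 654 CPM with vehicle and 564 to 638 CPM with leptin at 3 h, and at 669 and 673 to 711 CPM at 10 h, so times did not overlap. How many of all genes also did not overlap was not counted. The call for Rian ended in 5 of the 13 fits without 1 lysate that could be made, namely without 3 h leptin m24 or f2 or any of the 3 wild-type 10 h leptin lysates. Between ob/ob and wild type at 10 h, edgeR called none of the 8 in beads (0.472% of genes called, 1 at an unadjusted p under 0.05, none by DESeq2) and none in the depleted fraction (5.57%, 3 and 1, Meg3). Of all genes, 1782 of 18212 in beads and 4272 of 19115 in the depleted fraction had an unadjusted p under 0.05. DESeq2 called 1366 genes in the depleted fraction.

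At 3 h no leptin difference in the 8 RNAs was called by edgeR. In beads the fitted differences ranged from -0.53 for Mirg to 0.06 for Kcnq1ot1 (edgeR adjusted p 0.726 to 0.9591), with 0.0220% of genes called, 0 of the 8 at an unadjusted p under 0.05 and none by DESeq2. Bead libraries overlapped, with Meg3 at 495 to 1697 CPM with vehicle and 575 to 975 CPM with leptin. In the depleted fraction the fitted differences ranged from -0.24 for Snhg11 to 0.14 for Neat1 (adjusted p 0.7053 to 0.9802), with 0% of genes called, none of the 8 at an unadjusted p under 0.05 and none by DESeq2. The standard error for Meg3 in beads was 0.456, larger than its fitted difference of -0.32. Glial markers in beads had negative medians in this contrast too, -0.43 for astrocytes, -0.32 for oligodendrocytes and -0.56 for microglia, negative in 12, 11 and 12 of 12. The median was -0.92 for endothelial and mural markers (12 of 12 negative) and 2.64 for 4 pituitary markers (none negative).

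At 10 h all 8 RNAs had lower fitted levels in beads with leptin, and edgeR called none. The effect, averaged over both genotypes, was -1.62 for Meg3 (SE 0.517, edgeR adjusted p = 0.5202), -1.38 for Malat1 (SE 0.4933, adjusted p = 0.5288), -1.17 for Neat1 and -1.12 for Miat. It was -1.08 for Snhg11, -0.78 for Mirg, -0.63 for Rian and -0.28 for Kcnq1ot1, with adjusted p up to 0.7277. The same fit called 0.0220% of genes. Of the 8 RNAs, 6 had an unadjusted p under 0.05, as did 1656 of the 18212 genes tested, and DESeq2 called none of the 8. In wild-type beads the lone vehicle library lay above all 3 leptin libraries for 7 RNAs and between them for Kcnq1ot1, where it held 5.54 CPM and the leptin libraries 3.83 to 6.08 CPM. That order rests on 1 vehicle library and on RNAs that mostly varied together over beads. The share of all genes with the same order was not counted. Without ob/ob vehicle 2 the effect was -1.01 for Meg3, -0.78 for Malat1 and -0.88 to -0.09 for the other 6 RNAs. With the glial level as a covariate it was -0.57 for Malat1, -0.28 for Meg3, -0.10 for Kcnq1ot1 and -0.01 for Neat1. That covariate left Miat and Rian at 0.00 and turned Mirg and Snhg11 positive, at 0.17 each, with no RNA called by edgeR. The glial level was taken from the same bead libraries and itself differed with leptin, so this fit cannot tell glial level and leptin apart. Glial markers had negative values in this contrast as well, none called, with 12 of 12 negative in each list and medians of -0.82 for astrocytes, -0.81 for oligodendrocytes and -1.04 for microglia, and mitochondrial-encoded mRNAs had a median of -3.62. The part of mitochondrial RNA in the result was not tested, and that of glial RNA cannot be told apart from leptin.

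In the depleted fraction at 10 h the leptin differences of the 8 RNAs centred on 0.00 and ranged from -0.31 for Mirg to 0.06 for Rian (edgeR adjusted p 0.5891 to 0.9928), with 0.00523% of genes called, none of the 8 at an unadjusted p under 0.05 and none by DESeq2. The leptin effect in beads minus that in the depleted fraction was tested in 1 fit. At 3 h it ranged from -0.42 for Neat1 to 0.10 for Kcnq1ot1 (adjusted p 0.9917 to 0.9996), with 0.0102% of genes called, none of the 8 at an unadjusted p under 0.05 and none by DESeq2. At 10 h it was -1.47 for Meg3 (SE 0.545, edgeR adjusted p = 0.7333), -1.09 for Malat1 and -0.66 for Rian, and no gene of the table was called (0%). In that comparison 3 of the 8 had an unadjusted p under 0.05, as did 1329 of the 19682 genes tested, and DESeq2 called none of the 8.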

How the data were processed

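Ribosome-bound (bead) and depleted RNA of 14 hypothalamic lysates was sequenced as poly(A)-selected, unstranded, 50-cycle single-end libraries, per the labels' protocols. The authors deposited raw counts per gene. STAR 2.7.6a and GRCm38.p6 are named in the submitters' processing notes. No source used here names the counting program, its annotation or its strand setting. Groups came from the sample labels.

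Counts were tested with edgeR 4.0.16 (R 4.3.3) using TMM factors, a filter of 10 or more counts in 3 or more libraries, the robust quasi-likelihood F test and Benjamini-Hochberg adjustment over all genes tested. The fit of beads against depleted libraries had a block for each lysate, the shared extract of such a pair. Their deviations from the group means correlated at r = 0.0696 to 0.282 in the 12 lysates of groups with more than 1 lysate, over 0.1 in 11. Within a fraction, 1 coefficient was fitted per group, so a lone library is assumed to vary like the rest. DESeq2 1.42.0, other scalings, no filter, covariates and leaving out lysates were alternatives. In simulated counts with log2 changes of -1 and 1, the bead comparison recovered 100 and 100 of 100 genes (19218 tested), and leptin at 3 h 91 and 88 of 100 (17896 tested). Correlation p-values came from 100000 resamples (scipy 1.17.1).

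Gene positions and types are from GENCODE M21, which held 55227 of 55487 identifiers. Sequences were read from its transcript sequences and placed on GRCm38. Named genes were all 8 RNAs, up to 4 of the most abundant genes of each list plus Xist, and the 5 genes most like Malat1 and Meg3 over bead libraries (mean CPM of at least 1, prior count 0.5). The RNAs, lists and tests were chosen with earlier results of these data known. Some items of these lists and sequences are not reported here.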

Additional observations from a re-analysis of the deposited data

Results flagged for a closer look

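Rian stood apart in the bead library of wild-type 3 h vehicle f1, at 335.2 CPM against 177 to 192 CPM in the other 3 vehicle lysates of that time. The same lysate stood apart in the bead level of Rian as a percent of the depleted level, at 54.98% against 28.6% to 32.6%. In both cases the gap to the nearest lysate took up more of the range than Dixon's limit for 4 values allows. These were 2 of 24 groups of 4 values examined, and chance alone sets off this test in about 1 group in 20. For the other 7 RNAs the same lysate was also the highest of these vehicle lysates in beads, without passing that limit.

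The gap of Mirg between beads and the depleted fraction differed between the times in wild type by -1.88 on the log2 scale (edgeR adjusted p = 0.03289, n = 7 lysates at 3 h and 4 at 10 h). At 3 h its bead level was 54.4% to 185.5% of the depleted level, and at 10 h 13.55% to 29.2%, so the lysates did not overlap, which also held for Malat1, Neat1, Rian and Snhg11. How many of all genes did so was not counted. Time, sequencing run and the mixing of Xist and Ddx3y RNA within the 10 h lysates cannot be told apart in it.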

How the results depend on the processing

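All 8 RNAs were lower in beads than in the depleted fraction under all 21 alternatives, with Meg3 between -3.10 and -2.80 and Kcnq1ot1 between -0.97 and -0.74. Without the lysate pairing (no replicate block) all 8 were still called in this comparison, the 1 comparison fitted without the block. Other counts of called RNAs moved. For wild type at 10 h minus 3 h (1 as reported), DESeq2 called 7, no filter on low counts 8 and scaling by neuronal genes 2, and leaving out 1 lysate gave 0 to 7. Removing the filter called 7 for ob/ob minus wild type, 6 for the difference of leptin effects at 10 h, 1 for leptin in beads at 3 h, 6 for leptin in beads at 10 h and 1 for leptin in the depleted fraction at 3 h. It called 6 and 4 for 10 h minus 3 h in beads and the depleted fraction, and 4 and 5 for ob/ob minus wild type. Without the filter the estimated prior degrees of freedom were 34.6 or infinite, against 6.67 to 8.13 with it. For 10 h minus 3 h, DESeq2 called 3 in beads and 2 in the depleted fraction, and leaving out the pair of lysates rich in pituitary transcripts gave 2 and 0. Leaving out 1 lysate gave 0 to 2 in both fractions. For ob/ob minus wild type in the depleted fraction DESeq2 called 1, and leaving out 1 lysate gave 0 to 1. The correlation of Malat1 with mitochondrial RNA lay between 0.4081 and 0.5637 without 1 lysate, and passed the test without wild-type 10 h vehicle or ob/ob vehicle 1. Mirg at 3 h was called with library totals (-0.46), with no filter (-0.30) and with neuronal scaling (-0.44). No direction reversed among called results. Leaving out the lone wild-type vehicle or ob/ob leptin lysate at 10 h gives no value for the contrasts that need it. The lowest count of any of the 8 RNAs was 24, and 5 of the 6 groups had 3 lysates or fewer.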

Other observations

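Bc1, a brain cytoplasmic RNA made by RNA polymerase III, had the lowest ratio of beads to the depleted fraction of all lncRNAs tested, and was picked out after its values were seen. Its log2 fold change of beads over the depleted fraction was -5.31 (SE 0.525, edgeR adjusted p = 4.06e-07), below the -2.92 of Meg3. Its mean over all libraries was 114 CPM.

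Ftx and Firre, both X-linked, went the other way from Xist. Ftx, a neighbour of Xist in the X inactivation centre, was lower in beads, with a log2 fold change of -2.39 (SE 0.214, edgeR adjusted p = 7.202e-08). Firre stood at -1.64.

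Hosts of small RNAs were found on both sides. Mir124a-1hg, the noncoding host of a neuronal microRNA, stood at -2.68 on the log2 scale, between Meg3 and Miat, while Gas5 and Zfas1 were higher in beads by 0.89 and 1.07. Trank1, a protein-coding gene, was among the 5 genes most like both Meg3 and Malat1 over the bead libraries, and stood at -1.34 in beads over the depleted fraction.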
